A study of Mus musculus with 2 samples.

Results

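The 10 acute phase protein genes described here were Orm1, Orm2, Orm3, Saa1, Saa2, Saa3, Saa4, Hp, Lcn2 and Crp. They were chosen by name, with earlier results of these data known, and all 10 were found among the 19073 features counted in both libraries. Single-cell RNA sequencing was performed on fixed liver cells of male p16-Tom mice on a C57BL/6 background, heterozygous for p16-CreERT2 and for the reporter R26-CAG-LSL-tdTomato-WPRE, after 4 weeks of carbon tetrachloride (CCl4) and tamoxifen. Tamoxifen lets the p16 promoter's Cre switch on tdTomato permanently, so Tom+ cells are those that transcribed p16Ink4a at that time in whatever cell type they belong to. Hoechst+ and MitoBrilliant 646+ cells were sorted by tdTomato into a p16low (Tom-) and a p16high (Tom+) hepatocyte library. Both groups carried the same alleles and received the same treatment, each group was 1 library, and the age and number of mice behind each library are not given in the sources used here. No untreated library was analysed here, and all comparisons are between these 2 libraries or between cells of 1 library, with no replicate and no test.

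Acute phase proteins are plasma proteins that hepatocytes secrete at changed rates during inflammation. Interleukin-6 acting through STAT3, with interleukin-1 and tumour necrosis factor acting through NF-kappaB and with glucocorticoids and C/EBP factors, is the textbook route of their induction. Orm1, Orm2 and Orm3 encode the alpha-1-acid glycoproteins, which carry drugs and lipids in plasma. Saa1 and Saa2 encode the inducible serum amyloid A proteins of high-density lipoprotein, Saa4 its constitutive form, and Saa3 a form made by many tissues. Hp encodes haptoglobin, which binds free haemoglobin, Lcn2 encodes lipocalin 2, which binds bacterial siderophores, and Crp encodes C-reactive protein, a pentraxin that is only weakly inducible in mice.

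The Orm and Saa genes are neighbours with similar sequences, which bears on every count below because the assay reads short probe targets. In mm10, Orm1 (4:63344560-63348163), Orm3 (4:63356162-63359511) and Orm2 (4:63362449-63365878) lay on the plus strand of chromosome 4 within 21319 bases. Saa3 (7:46711998-46715700), Saa4 (7:46727998-46732603) and Saa1 (7:46740497-46742980) on the minus strand and Saa2 (7:46751790-46754313) on the plus strand lay within 42316 bases of chromosome 7. The coding sequences of Saa1 and Saa2 were 95.1% identical, and those of Orm1 and Orm2 were 89.9% identical. Of the 25-base words of the Saa1 transcript, 34.9% also occurred in the Saa2 transcript, and 31.3% of those of Orm1 also occurred in Orm2. Orm3 shared 7.61% of its words with Orm1 and 13.9% with Orm2, and Saa4 shared 0 with the other 3 Saa genes. Saa3 shared 34 words with Saa1, 1.33% of its own and 5.81% of those of Saa1, and their coding sequences were 77.3% identical. The probe targets were not used here, so the counts among Saa1, Saa2 and Saa3 and among the 3 Orm genes are uncertain to an unknown extent. Hp (8:109575128-109579172), Lcn2 (2:32384633-32388252) and Crp (1:172698055-172833031) have no such neighbour among the 10 genes.

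The upstream sequences are shown for 5 of these genes because the near-copies can be seen in them, Orm2 beside Orm3 and Saa1 beside Saa2, with Saa3 as the less similar neighbour. They run from base 250 to base 51 before the RefSeq start of each gene (GRCm38.p6, gene strand), and capitals mark a match to TTGCNNAA or its reverse complement, a simplified C/EBP-type motif. Of the 10 genes, 8 had an upstream entry, and Orm1 and Hp did not.
Orm2: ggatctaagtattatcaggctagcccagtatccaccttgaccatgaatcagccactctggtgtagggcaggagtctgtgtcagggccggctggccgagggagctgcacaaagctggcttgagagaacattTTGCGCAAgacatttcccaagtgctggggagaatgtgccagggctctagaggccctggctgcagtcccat
Orm3: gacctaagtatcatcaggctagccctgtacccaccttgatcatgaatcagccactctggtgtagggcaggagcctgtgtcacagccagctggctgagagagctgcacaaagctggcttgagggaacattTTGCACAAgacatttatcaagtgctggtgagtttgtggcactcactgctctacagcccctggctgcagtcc
Saa1: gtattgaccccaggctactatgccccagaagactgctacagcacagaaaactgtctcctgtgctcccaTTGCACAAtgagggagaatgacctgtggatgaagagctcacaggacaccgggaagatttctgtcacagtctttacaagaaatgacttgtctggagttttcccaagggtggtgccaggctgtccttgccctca
Saa2: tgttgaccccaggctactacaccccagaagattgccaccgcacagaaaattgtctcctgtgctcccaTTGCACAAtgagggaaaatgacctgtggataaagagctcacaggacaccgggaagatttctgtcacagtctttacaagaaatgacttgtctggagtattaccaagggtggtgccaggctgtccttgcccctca
Saa3: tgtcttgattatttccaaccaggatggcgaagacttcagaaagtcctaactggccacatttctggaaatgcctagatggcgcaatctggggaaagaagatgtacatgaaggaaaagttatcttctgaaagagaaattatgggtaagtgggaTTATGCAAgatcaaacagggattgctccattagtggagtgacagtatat
The windows stood at chr4:63362199-63362398 (Orm2, plus strand), chr4:63355908-63356107 (Orm3, plus), chr7:46743031-46743230 (Saa1, minus), chr7:46751583-46751782 (Saa2, plus) and chr7:46715727-46715926 (Saa3, minus).
The windows of Saa1 and Saa2 were 93.5% identical, those of Orm2 and Orm3 were 85.3% identical and those of Saa1 and Saa3 were 54.7% identical. TTGCNNAA was found on either strand in 7 of the 8 genes with an entry (not in Crp), against 8.11% of 32851 RefSeq windows of the same length. The near-copied windows are not independent of each other. Their matches lay at -182 and -183 (Saa1 and Saa2) and at -120 and -121 (Orm2 and Orm3). The STAT-type motif TTCNNNGAA was found in 0 of the 8, against 5.76% of all windows. A loose NF-kappaB-type motif (3 G, any 5 letters, then 2 C, on either strand) was found in Saa1, Saa2, Saa4 and Lcn2, against 37.2% of all windows, and no match to it overlapped a TTGCNNAA match. A match is a run of letters and not a measured binding site.

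After the study's cell filters, clusters with few genes or with non-hepatocyte markers were left out (44.9% of the filtered Tom- cells and 24.8% of the Tom+ cells), which left 11110 Tom- and 10059 Tom+ hepatocytes with a median of 32411.5 and 35415 UMIs (counted molecules) per cell. The libraries shared 503 barcodes. tdTomato was at 72.7 CPM (the UMIs of a gene scaled to all UMIs of the summed hepatocytes) in Tom- and 811 CPM in Tom+. Cdkn2a, the gene of p16Ink4a, was at 0.176 and 0.19 CPM, and this level did not separate the libraries. Alb was at 118259 and 108187 CPM. Clusters left out still carried Alb at hepatocyte level, at 101707 CPM or more, and in the hepatocytes the endothelial, macrophage and stellate marker sums lay between 38.3 and 191 CPM in both libraries. Zone 3 (central) markers summed to 3667 CPM in Tom- and 6726 CPM in Tom+, and zone 1 (portal) markers to 16453 and 11294 CPM.

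The first comparison asked whether the acute phase genes differed between the libraries labelled p16high and p16low. Hp was at 5806 CPM in Tom- and 6389 CPM in Tom+, which placed it 9th among all genes by CPM, and it was followed in CPM by Crp at 1461 and 1270 CPM and Orm1 at 1281 and 1042 CPM. Probe number and efficiency differ between genes, so these values do not order the transcripts. Of the 10 genes, 0 passed 2-fold between the libraries in either direction, while 0.306% of the 7835 genes compared did, 0.281% higher and 0.0255% lower in Tom+ (at least 10 CPM in either library and 20 UMIs over both). The median log2 ratio of Tom+ over Tom- was -0.02 over the 10 genes and 0.04 over all genes compared.

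Within the Orm family the genes went in different directions. Orm1 gave a log2 ratio of -0.30 (-0.30 to -0.29, 95% exact interval for counting error only, as for all intervals here). Orm2 stood at 57.9 CPM in Tom- and 67.0 CPM in Tom+, and its log2 ratio was 0.21 (0.18 to 0.24). Orm3 had 7.88 CPM in Tom- and 12.5 CPM in Tom+, and its log2 ratio of 0.67 (0.60 to 0.73) was the largest of the 10 genes and lay above those of 99.0% of the genes compared. It reached 10 CPM only in Tom+, where it was higher, so its place among the genes compared is a description.

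Among the serum amyloid A genes, Saa1 was at 364 CPM in Tom- and 282 CPM in Tom+, Saa2 at 79.5 and 67.5 CPM and Saa4 at 581 and 511 CPM. These 3 genes were lower in the Tom+ library, with log2 ratios of -0.37, -0.24 and -0.19. Saa3 was at 17.9 and 23.0 CPM and went the other way, with a log2 ratio of 0.36 (0.32 to 0.41). Of the remaining genes, Lcn2 was at 34.7 CPM in Tom- and 41.3 CPM in Tom+ (log2 0.25), Hp had a log2 ratio of 0.14 and Crp one of -0.20. Every interval lay on 1 side of 0, but they cover counting error and not the spread between cells or mice. A difference of this size could therefore not be told apart from that between any 2 libraries.

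The libraries differed in where their cells lay along the lobule, and the acute phase genes were therefore described by position. Each cell was scored by zone 3 markers minus zone 1 markers, with none of the 10 genes in the score, and the scores were cut into 5 ranges of equal cell number over both libraries. Range 1 is the portal end and range 5 the central end, and they are stretches of 1 score, not cell types. Between 2.68% and 8.70% of cells lay within 0.1 score units of a cut. Range 1 held 3023 Tom- and 1211 Tom+ hepatocytes, and range 5 held 1110 and 3123.

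Orm1 fell stepwise from the portal to the central end. Its levels in ranges 1 to 5 were 1550.5, 1455, 1253, 957 and 565 CPM in Tom-. In Tom+ they were 1618, 1507, 1258, 919 and 549 CPM. The order was the same in both libraries and neighbouring ranges did not overlap in their counting intervals. The log2 ratio of range 1 over range 5 was 1.46 in Tom- and 1.56 in Tom+.

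The other Orm genes were less alike. Orm3 was at 9.72, 9.95, 7.72, 4.05 and 2.95 CPM in Tom- and at 19.6, 22.3, 12.2, 9.58 and 7.51 CPM in Tom+. Range 2 was highest and range 5 lowest in both libraries, and every Tom+ value was above the Tom- value of its range. Orm2 spanned 46.1 to 63.8 CPM in Tom- with its lowest level at the central end, and 64.4 to 70.8 CPM in Tom+, where the end ranges differed by a log2 ratio of 0.02 (-0.03 to 0.08). Without the hepatocyte clusters described below that were at least 90% Tom+, this ratio was 0.33.

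**Figure D1:**
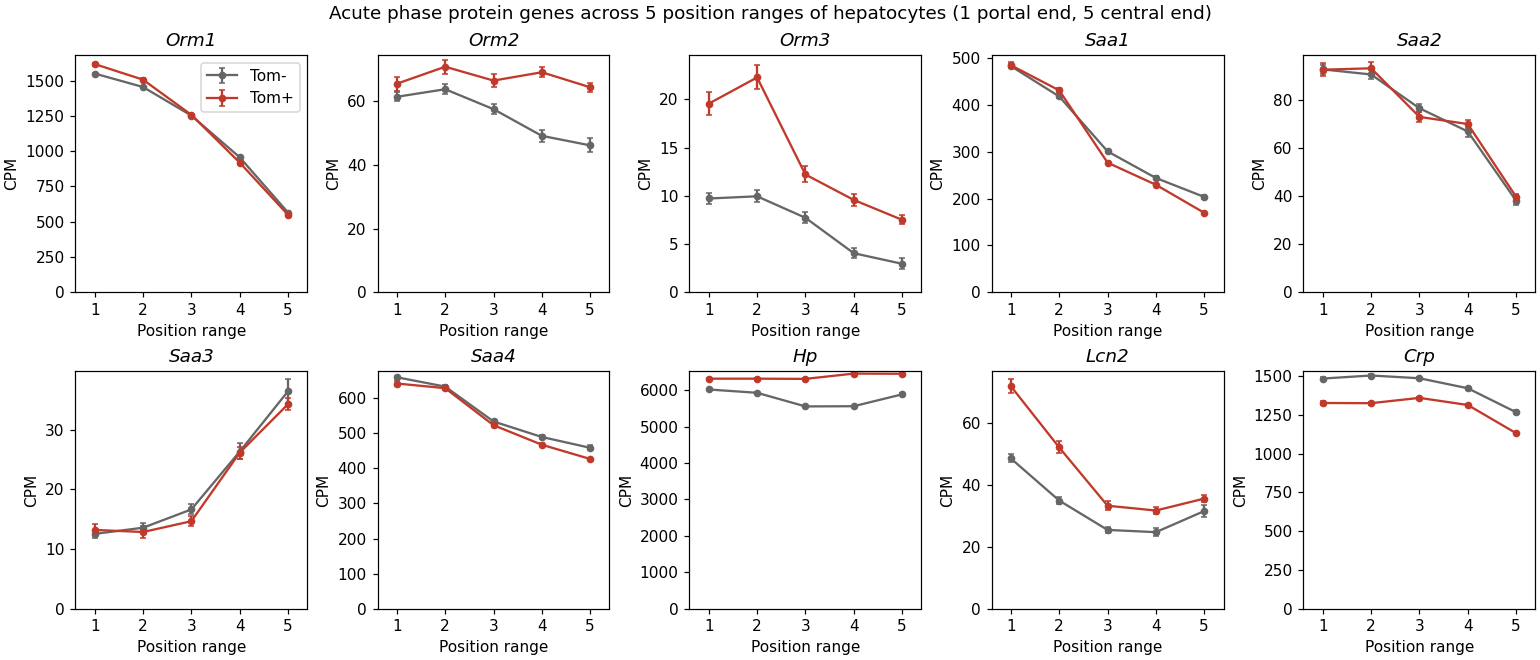
CPM (vertical axis, from 0, a separate scale for each gene) of the 10 genes in position ranges 1 (portal end) to 5 (central end) of hepatocytes in the Tom- (grey) and Tom+ (red) library; bars are 95% exact Poisson intervals for counting error. Orm1, Saa1, Saa2 and Saa4 decline towards range 5, Saa3 climbs from 12.5 to 36.5 CPM in Tom-, and the Orm3, Lcn2 and Hp lines of the Tom+ library lie above those of the Tom- library.

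The inducible serum amyloid A genes were also higher towards the portal end, with Saa2 of Tom+ near level in ranges 1 and 2, and Saa3 was highest at the opposite end. Saa1 was at 483, 418, 301, 244 and 204 CPM in ranges 1 to 5 of Tom- and at 485, 431, 277, 229.7 and 169.8 CPM in those of Tom+. Saa2 was at 92.5, 90.4, 76.4, 66.7 and 38.0 CPM in Tom- and at 92.4, 93.0, 72.8, 69.8 and 39.6 CPM in Tom+. Both genes were at their lowest in range 5 of each library. Saa3 was at 12.5, 13.6, 16.6, 26.3 and 36.5 CPM in Tom- and at 13.2, 12.9, 14.7, 26.2 and 34.3 CPM in Tom+. It was the gene of the 10 that was higher at the central end by over 2-fold, with log2 ratios of portal over central of -1.54 in Tom- and -1.38 in Tom+. With a position score from 4 markers the Tom- ratio was -0.97 and no longer past 2-fold. Saa4 declined from 660.1 to 459 CPM in Tom- and from 642 to 427 CPM in Tom+.

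Lcn2 also varied along the lobule, and Hp and Crp varied little. Lcn2 was at 48.5, 34.9, 25.4, 24.7 and 31.5 CPM in Tom- and at 71.8, 52.0, 33.2, 31.7 and 35.5 CPM in Tom+, highest in range 1 and lowest in range 4 of both. Crp lay between 1267 and 1504 CPM in Tom- and between 1132 and 1359 CPM in Tom+, with its lowest level in range 5. Hp lay between 5552 and 6017 CPM in Tom- and between 6308 and 6453 CPM in Tom+, so its levels in the 2 libraries did not overlap across positions.

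Of the 10 genes, Orm1, Saa1 and Saa2 passed 2-fold higher at the portal end in Tom-, against 2.61% of the 7973 genes compared, and Saa3 passed it lower, against 3.99% (6.6% in either direction). In Tom+, 5 passed it higher (Orm1, Orm3, Saa1, Saa2 and Lcn2), against 2.77% of 8052 genes, and Saa3 passed it lower, against 4.55% (7.31% in either direction). Without the clusters of at least 90% Tom+ cells Saa2 had a log2 ratio of 0.86 in Tom+ and no longer passed. The 5 also became 3 with 3 position ranges or the score from 4 markers, where Saa2 and Lcn2 were lost, and with clusters named zone 1-like and zone 3-like in place of ranges, where Orm3 and Lcn2 were lost. Lcn2 in Tom+ stood just inside the threshold with a fold of 2.02, while in Tom- it had a fold of 1.54. Orm3 in Tom- had a fold of 3.30 but was under 10 CPM in both end ranges and was not counted. In Tom+, Orm3 stood at 19.6 CPM in range 1 and 7.51 CPM in range 5. Of these it reached 10 CPM only in range 1, where it was higher, so its call is a description. The median log2 ratio of the 10 genes was 0.57 in Tom- and 0.80 in Tom+, and that of all genes was -0.17 and -0.22. Scaling by median-of-ratios instead of total UMIs moved these log2 ratios up by 0.19 in Tom- and 0.23 in Tom+, which changed the direction of Hp in Tom+ and of no other member.

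With cells of like position set against each other, the differences between the libraries were smaller for Orm1, the 4 Saa genes and Crp. Orm1 had log2 ratios of Tom+ over Tom- between -0.06 and 0.06 in the 5 ranges, against -0.30 over all hepatocytes. Saa2 lay between -0.07 and 0.07 within ranges, and Saa1 between -0.26 and 0.04. Saa3 lay between -0.18 and 0.07, against 0.36 over all hepatocytes.

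The genes that kept 1 direction in all 5 ranges were Orm2, Orm3, Hp and Lcn2 (higher in Tom+) and Saa4 and Crp (lower in Tom+). For Saa4 the direction was unsettled in range 2, where its value was -0.01 and the counting error (-0.03 to 0.01) spanned both signs. How many of all genes compared kept 1 direction was not counted, so this list is a description without a background. Orm3 had log2 ratios of 1.01, 1.16, 0.66, 1.24 and 1.35 in ranges 1 to 5, with a mean of 1.08. It passed 2-fold in ranges 1 and 2, where it reached 10 CPM only in Tom+, the library in which it was higher, so these calls are a description. Of all genes compared, 0.105% passed in range 1 (0.0918% higher and 0.0131% lower in Tom+) and 0.0776% in range 2 (0.0647% and 0.0129%). No member passed in ranges 3 to 5, where 0.0386%, 0.0893% and 0.1% of genes did (0.0386%, 0.0383% and 0.0752% higher, and 0%, 0.051% and 0.0251% lower). Orm3 was under 10 CPM in both libraries in ranges 4 and 5 and not counted in them. The log2 ratio of 1.01 in range 1 was just inside the threshold. The mean over ranges was 0.41 for Lcn2, 0.29 for Orm2, 0.14 for Hp, -0.05 for Saa4 and -0.15 for Crp.

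**Figure D2:**
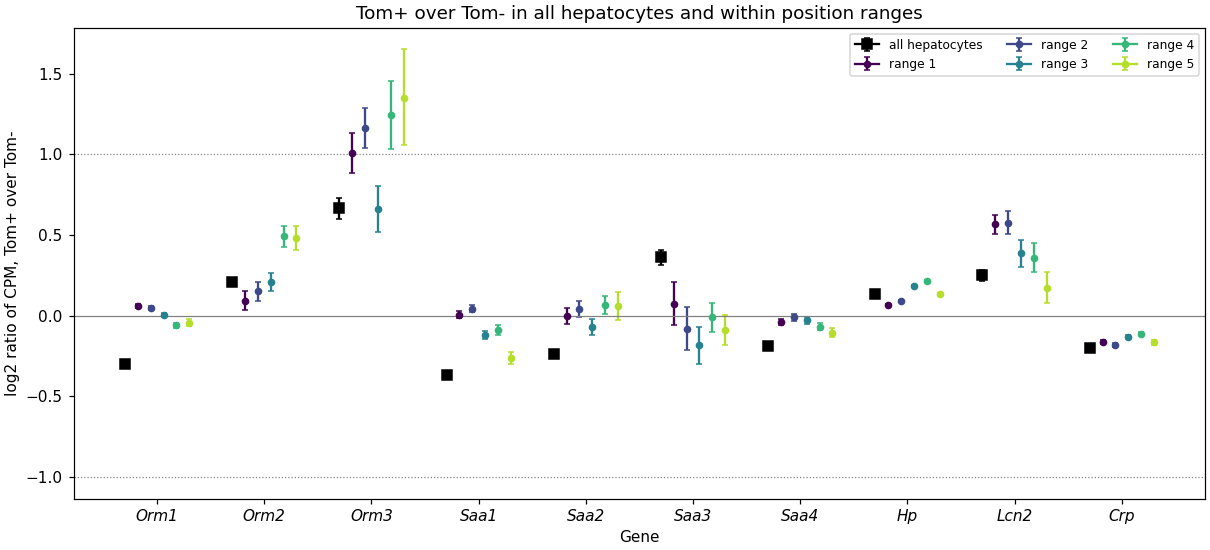
log2 ratio of CPM, Tom+ over Tom- (vertical axis), for each of the 10 genes in all hepatocytes (black squares) and within position ranges 1 to 5 (coloured circles); bars are 95% exact conditional intervals for counting error and dotted lines mark 2-fold. The Orm1 and Saa2 circles lie near 0 (-0.06 to 0.06 and -0.07 to 0.07), and all 5 Orm3 circles lie between 0.66 and 1.35.

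The Orm3 and Orm2 differences were then traced to clusters of hepatocytes. The 10 genes were left out of the clustering genes, so that no cluster could be built from them, and the cells kept as hepatocytes fell into 14 clusters. Of these, clusters 8, 11 and 12 are unnamed and led by genes of other cell types (the collagen genes Col3a1, Col1a2 and Col1a1 in 8, the macrophage genes Marco, Cd163 and Clec4f in 11, and Dmbt1, Mmp7 and Krt19 in 12), and leaving them out with cluster 10 changed no count of members past 2-fold. A cluster mostly of 1 library may be that library and not a cell type, and the levels are given as a description. Cluster 7 (38 Tom- and 1500 Tom+ cells, zone 3-like, led by H2-Q1, Snhg11, Ces2c, Dbp and Gstm3) and cluster 9 (36 Tom- and 488 Tom+ cells, zone 1-like, led by Orm3, Chrna4, Grm8, Dbp and Cyp2f2) were at least 90% Tom+. Zone names rest on marker lists.

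Orm3 was at 66.7 CPM in the Tom+ cells and 79.4 CPM in the Tom- cells of cluster 9, and at 23.4 and 36.4 CPM in those of cluster 7. In the larger zone 3-like cluster 0, led by Slc1a2, it was at 2.75 CPM in Tom+ and 2.64 CPM in Tom-, and in the zone 1-like cluster 1, led by Mup3, at 10.1 and 9.63 CPM. The few Tom- cells of clusters 9 and 7, with 72 and 34 Orm3 UMIs, therefore had levels no lower than the Tom+ cells beside them. Of these 74 Tom- cells 1 shared a barcode with the Tom+ library, and their tdTomato level was 102 CPM, against 72.5 CPM in other Tom- hepatocytes and 760 CPM in the Tom+ cells of the same clusters.

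Clusters 7 and 9 with the small unnamed cluster 13 (20 Tom+ cells led by Nupr1) held 20.0% of Tom+ hepatocytes and 53.0% of the Orm3 UMIs of that library. Orm3 was at 33.6 CPM there and at 7.32 CPM in the other Tom+ hepatocytes, and Orm2 at 102 and 58.3 CPM. Saa1 was at 156 CPM there and at 313 CPM elsewhere, and Saa2 at 38.4 and 74.7 CPM. These sums are mostly cluster 7, and in Tom+ the clusters went apart for Saa1, which was at 104 CPM in cluster 7, 323 CPM in cluster 9 and 539.7 CPM in cluster 13, and for Saa2, which was at 27.7, 72.8 and 72.4 CPM. Without these clusters, the log2 ratio of Tom+ over Tom- was -0.06 (-0.14 to 0.02) for Orm3 and 0.02 (-0.01 to 0.04) for Orm2, and the mean over position ranges was 0.28 for Orm3, 0.12 for Orm2 and 0.39 for Lcn2. No pair of a gene and a range passed 2-fold then, so the Orm3 calls rested on cells of these clusters, whose separate origin (mouse, library or cell state) cannot be told apart here.

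A second cluster stood out for the serum amyloid A genes. Cluster 10 (148 Tom- and 130 Tom+ cells, unnamed, with 6 zone 3 markers) was led by Rsad2, Cxcl10, Ifit3b, Ifit3 and Cxcl2, which are interferon-induced genes and chemokines. Saa3 was at 272 CPM in its Tom- cells and 214 CPM in its Tom+ cells, 18.1-fold and 10.5-fold over the other hepatocytes of the same library. Saa2 was at 610.1 and 275 CPM (8.32-fold and 4.26-fold), and Saa1 at 1368 and 894 CPM (3.88-fold and 3.27-fold). Lcn2 was at 130.1 and 135 CPM (3.88-fold and 3.38-fold) and Orm2 at 128 and 147 CPM (2.25-fold and 2.24-fold).

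The other members stood near the level of other hepatocytes in cluster 10. Hp was 1.17-fold and 1.29-fold, Saa4 1.17-fold and 1.25-fold, Crp 1.07-fold and 1.09-fold and Orm1 0.949-fold and 0.89-fold over other hepatocytes in Tom- and Tom+. Orm3 was at 10.5 and 16.8 CPM, 1.33-fold and 1.35-fold. The median cell of cluster 10 lay in range 4, and without this cluster the log2 ratio of portal over central for Saa3 was -1.11 in Tom- and -1.14 in Tom+, still past 2-fold. The ratio was 1.40 and 1.69 for Saa1 and 0.79 and 1.18 for Lcn2 without it.

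**Figure D3:**
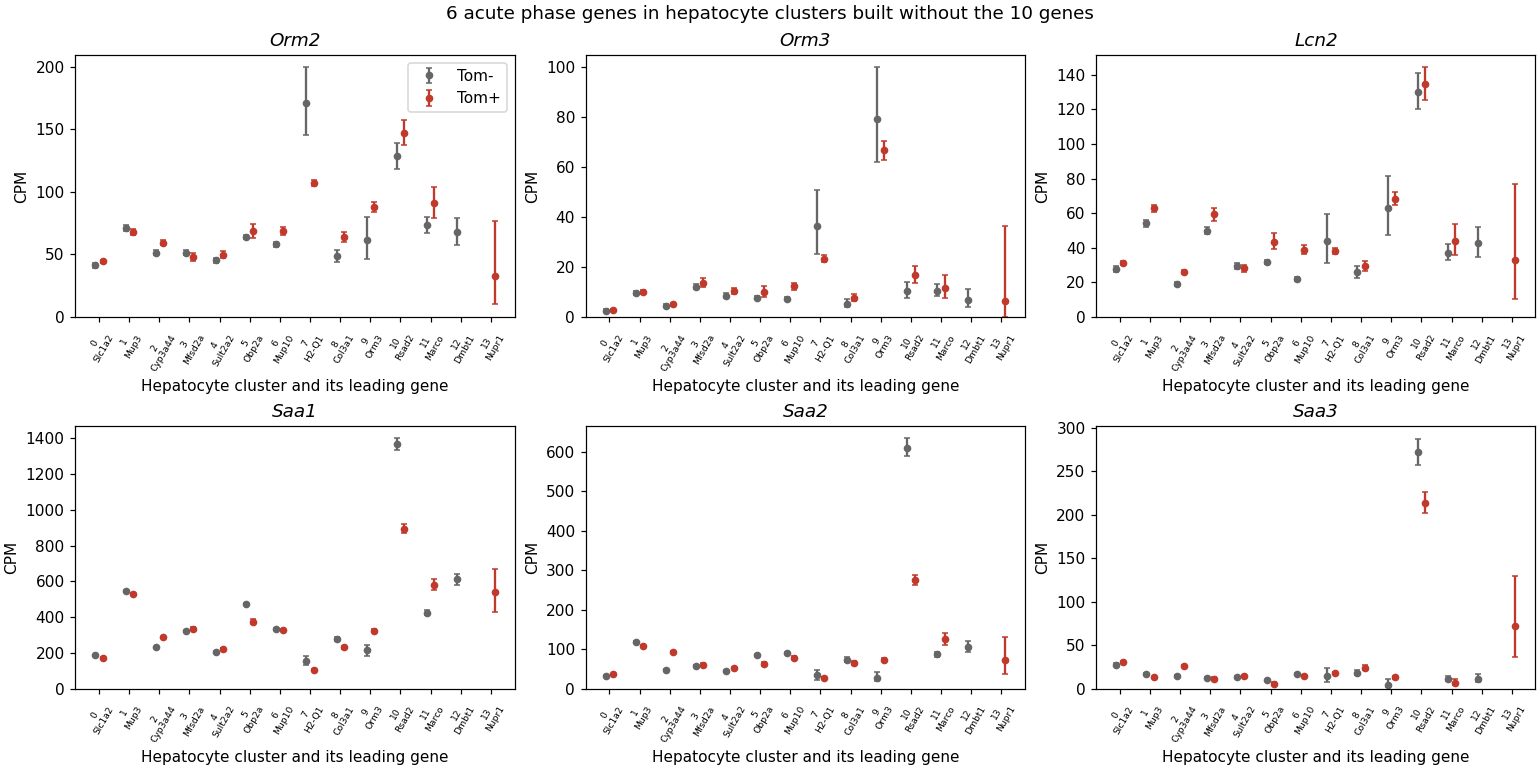
CPM (vertical axis, from 0) of 6 of the genes in 14 hepatocyte clusters (horizontal axis: cluster number and its leading gene) in the Tom- (grey) and Tom+ (red) library; bars are 95% exact Poisson intervals and points of fewer than 20 cells are not drawn. Orm3 is highest in cluster 9, with 79.4 CPM in Tom- and 66.7 CPM in Tom+, and among the points drawn Saa1, Saa2, Saa3 and Lcn2 are highest in cluster 10, with Saa3 at 272 and 214 CPM.

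Over 23 profiles (hepatocyte clusters by library with at least 50 cells, which share libraries, depth and total scaling), the members did not follow a single pattern. Saa1 was most like Saa2 (Pearson r of log2 CPM 0.94), then Ly6e and Lgals9. Saa2 was next most like Irf7 and Gvin1, and Saa3 was most like Steap4 (0.95), Icam1 and Igtp. Saa3 was at 272 (Tom-) and 214 CPM (Tom+) in the profiles of cluster 10 and at 30.9 CPM or less in the rest. Its r values therefore lean on that cluster. Orm1 was most like Serpina1d (0.96), Rarres2 and Serpina3k, and Orm3 most like Elovl6 (0.85), Chrna4 and Per3. Orm2 was most like Krt18 (0.86), Nab1 and Ly6d, Saa4 like Il1rn (0.94), Gadd45g and Rasgef1b, and Lcn2 like H2-Q7 (0.90), Btc and Rcan1. The nearest genes were Ogfr (0.84), Dusp28 and Tmem8 for Hp and Sdc4 (0.86), Cyp2b9 and Pla1a for Crp. Between members, Orm1 and Saa3 had an r of -0.40 and Orm1 and Saa4 one of 0.74.

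Single-cell spread was measured with each hepatocyte thinned to 5000 UMIs, which left out 41 Tom- and 37 Tom+ cells with fewer. The share of cells with a UMI ran from nearly all cells to few, with no sharp break. At this depth Hp had a UMI in 100% of Tom- and 99.99% of Tom+ hepatocytes, Crp in 99.8% and 99.5%, Orm1 in 98.3% and 94.9% and Saa4 in 92.9% and 89.3%. Saa1 had a UMI in 64.3% and 52.2%, Orm2 in 23.1% and 24.0%, Saa2 in 20.0% and 17.1% and Lcn2 in 15.1% and 17.2%. Saa3 had one in 5.66% and 6.64% and Orm3 in 3.96% and 5.77%.

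These shares depend on depth, and without thinning they were 69.0% and 69.4% for Orm2, 58.9% and 53.8% for Saa2, 54.9% and 60.3% for Lcn2, 23.5% and 27.4% for Saa3 and 19.7% and 24.4% for Orm3. No cluster in the files lacked hepatocyte RNA: in the cluster led by the endothelial gene Hecw2 (median 44371 UMIs in Tom- and 48990 in Tom+), Alb had a UMI in 100% of cells. Saa3 had a UMI there in 5.26% and 5.58% of cells and Orm3 in 3.60% and 4.44% at the same thinned depth. Saa1 had one in 69.8% and 57.9% of them, Orm2 in 22.3% and 26.3%, Saa2 in 21.2% and 19.9% and Lcn2 in 14.3% and 17.8%. The shares of all 6 genes in hepatocytes were near these, but Alb in this cluster was at 121225 CPM, near the hepatocyte level. Like shares are therefore no measure of background, and the shares are not read as shares of expressing cells. A smaller cluster of 577 cells, also led by Hecw2, was not used for these shares.

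The variance of UMIs per cell over their mean was high for Saa1, Saa2 and Saa3 against genes of like mean. It was 6.34 in Tom- and 7.21 in Tom+ for Saa1, 9.63 and 8.61 for Saa2 and 5.10 and 5.35 for Saa3, while genes of like mean had medians between 1.02 and 1.11. Orm1 had 1.75 and 2.26 (genes of like mean 1.58 and 1.41), and Saa4 had 1.25 and 1.33. Crp, at 1.26 and 1.34, was below genes of like mean, which had 1.77 and 1.54. Lcn2 had 1.59 and 1.47, Orm2 1.34 and 1.68 and Orm3 1.13 and 1.26, each above the median of genes of like mean, which lay between 1.01 and 1.03. Hp had 4.00 and 5.13, below the 5.04 and 7.70 of the 2 genes of like mean.

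The share of a gene's UMIs in few cells was also measured, and a low mean raises it by itself. The top 1% of cells for each gene held 48.6% of Saa3 UMIs in Tom- and 46.4% in Tom+, 32.2% and 31.8% of those of Saa2 and 13.1% and 16.0% of those of Saa1. For Orm3 the share was 30.5% and 29.1%, near that of Saa2, for Lcn2 17.1% and 15.5% and for Orm2 12.2% and 14.3%. For Orm1 the share was 2.58% and 3.23%, and for Hp 2.41% and 2.78%. The highest single cell had 91 Saa1 UMIs in Tom- and 146 in Tom+ out of 5000, against a median of 1 in both libraries. For Saa2 the highest was 103 and 112 and for Saa3 33 and 47, against a median of 0. Position ranges accounted for 21.5% and 33.9% of the variance of Orm1 between cells, and for 5.09% or less of that of any other member. Counting noise at a low mean lowers this share by itself, so it does not rank the genes by how far their levels differed with position.

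**Figure D4:**
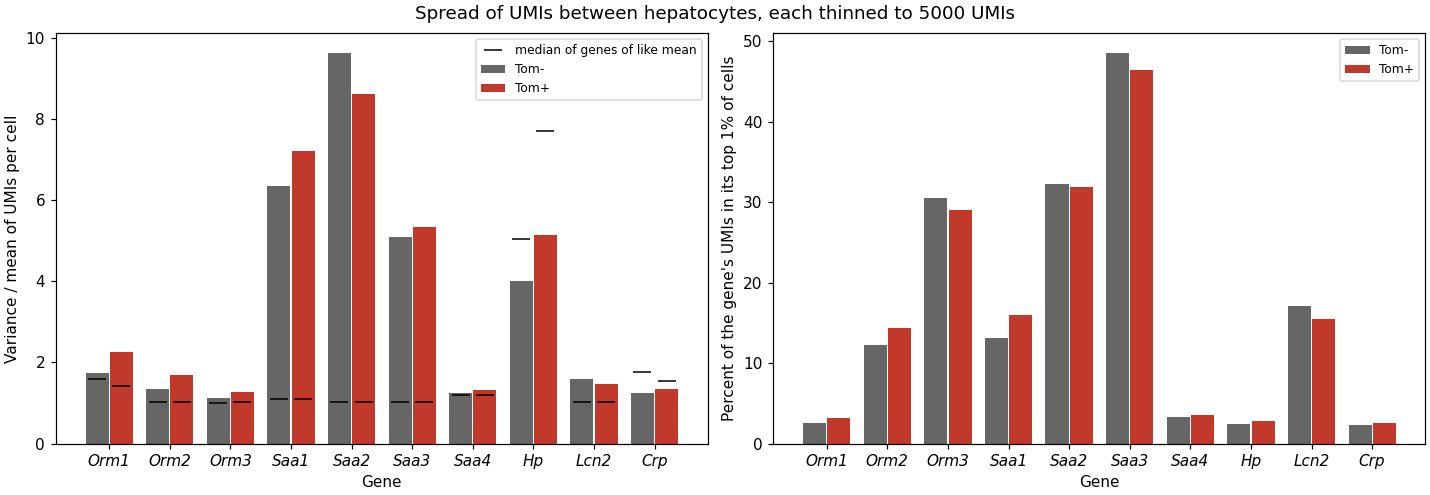
Left: variance over mean of UMIs per hepatocyte (bars, from 0) for each gene after thinning to 5000 UMIs, with the median of genes of like mean (black dashes). Right: percent of each gene's UMIs held by its top 1% of cells, for Tom- (grey) and Tom+ (red). Saa1, Saa2 and Saa3 have ratios between 5.10 and 9.63, and Saa3 has 48.6% and 46.4% of its UMIs in 1% of cells.

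The same cells were high in several of these genes. Across 11069 Tom- and 10022 Tom+ thinned cells, which share library and fixed depth, Pearson's r between Saa1 and Saa2 was 0.74 in both libraries, and between Saa1 and Saa3 it was 0.45 and 0.59. Spearman's rho of the former pair was 0.25 and 0.27, and most cells had 0 Saa2 UMIs at this depth, so ranks are tied. Mean Saa2 was higher in each higher bin of Saa1. Cells with 0 Saa1 UMIs averaged 0.143 Saa2 and 28.0 Hp UMIs in Tom-, and 0.117 and 30.9 in Tom+. Cells with 20 or more Saa1 UMIs (43 in Tom- and 44 in Tom+) averaged 19.6 Saa2 and 52.2 Hp UMIs in Tom-, and 13.9 and 59.0 in Tom+. Saa1 and Saa2 may share probe targets, and the part of this in their correlation was not tested.

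Cells with 5 or more Saa3 UMIs out of 5000 were then described as Saa3-rich, a limit chosen after the values were seen. They were 31 of 11069 Tom- hepatocytes (0.28%, exact binomial interval 0.19 to 0.397%) and 40 of 10022 Tom+ hepatocytes (0.399%, 0.285 to 0.543%), and they held 28.8% and 30.0% of all Saa3 UMIs. Just outside the limit were 13 and 20 cells with 4 UMIs, and just inside 9 and 9 cells with 5. Their share in Tom- was 0.132% of range 1 (4 cells, 0.0361 to 0.339%) and 0.631% of range 5 (7 cells, 0.254 to 1.30%). In Tom+ it was 0.0827% of range 1 (1 cell, 0.00209 to 0.46%) and 0.609% of range 5 (19 cells, 0.367 to 0.95%), and the intervals of the end ranges overlapped in both libraries. Range 2 of Tom+ held 0 of 1440 cells (0 to 0.256%) and range 4 held 16 of 2636 (0.607%, 0.347 to 0.984%). In Tom- the intervals of range 2 (3 cells, 0.0224 to 0.317%) and range 4 (9 cells, 0.26 to 1.08%) overlapped. These intervals take the cells of 1 library as independent, and a difference by position was not tested. Of the Saa3-rich cells, 12 of 31 in Tom- and 9 of 40 in Tom+ were in cluster 10, where they were 8.33% and 6.92% of cells. Cluster 0 held 6 and 14 of them and cluster 2 held 0 and 8, at 0.568% of cells or less.

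In the Saa3-rich cells Saa2 was at 3052 CPM in Tom- and 1915 CPM in Tom+, 44.1-fold and 31.8-fold over the other hepatocytes. Saa1 was 16.6-fold and 17.5-fold, Lcn2 16.9-fold and 8.63-fold and Orm2 5.43-fold and 10.6-fold over them. Hp at 1.76-fold and 1.83-fold, Saa4 at 1.82-fold and 1.53-fold, Crp at 1.56-fold and 1.33-fold and Orm1 at 1.38-fold and 1.29-fold differed far less. Orm3 had 3 UMIs in Tom- and 1 in Tom+ there, with counting intervals that included 0 on the log2 scale.

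By the 2-fold rule, 5 of the 9 members other than Saa3 counted as higher in the Saa3-rich cells of Tom-, against 11.1% of 8294 genes. Of these, Saa2, Lcn2, Saa1 and Orm2 rested on 49 UMIs or more, while Orm3 reached 10 CPM only through 3 UMIs in those cells and is not read as higher. In Tom+ 4 of 9 counted as higher (Saa2, Saa1, Orm2 and Lcn2), against 9.08% of 8560 genes. No member was lower, against 7.19% and 4.86% of genes. These shares hold counting noise, since so few cells were summed, and the cells were chosen by Saa3 itself. Of the other positive acute phase genes, 3 of 30 were higher in Tom- (Cd14, Steap4 and Il1rn at log2 4.90, 3.26 and 2.87) and 3 of 30 in Tom+ (Cd14, Steap4 and Hamp at 2.57, 2.40 and 1.40), with 0 lower in either. Their median log2 ratio was 0.18 in Tom- and 0.09 in Tom+, beside 0.10 and 0.12 over all genes, and 3 of 30 is near the shares of all genes higher. Cd14 was at 4.91 CPM in all Tom- hepatocytes and 5.00 CPM in all Tom+ hepatocytes. It reached 10 CPM only in the Saa3-rich cells, rested on 5 UMIs in Tom+ and is not read as higher.

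Markers of other cell types were summed in the same cells. The 6 neutrophil markers gave 1 UMI in the Saa3-rich cells of each library and the 6 lymphocyte markers gave 0. The 7 macrophage markers summed to 187 CPM against 187 CPM in the other hepatocytes of Tom-, and to 160.0 against 142 CPM in Tom+. The 6 cholangiocyte markers summed to 32.3 against 10.8 CPM in Tom-, from 5 UMIs, and to 15.0 against 6.51 CPM in Tom+, from 3 UMIs, and their part in these levels was not tested. Median depth was 34061 against 32479.5 UMIs in Tom- and 31995.5 against 35526 UMIs in Tom+. Of the Saa3-rich cells 3.23% in Tom- and 7.50% in Tom+ were among the 10% of cells with the highest doublet score, against 9.87% and 8.40% of the other cells, but the caller behind this score marked 0 doublets and the score was not shown to find them.

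**Figure D5:**
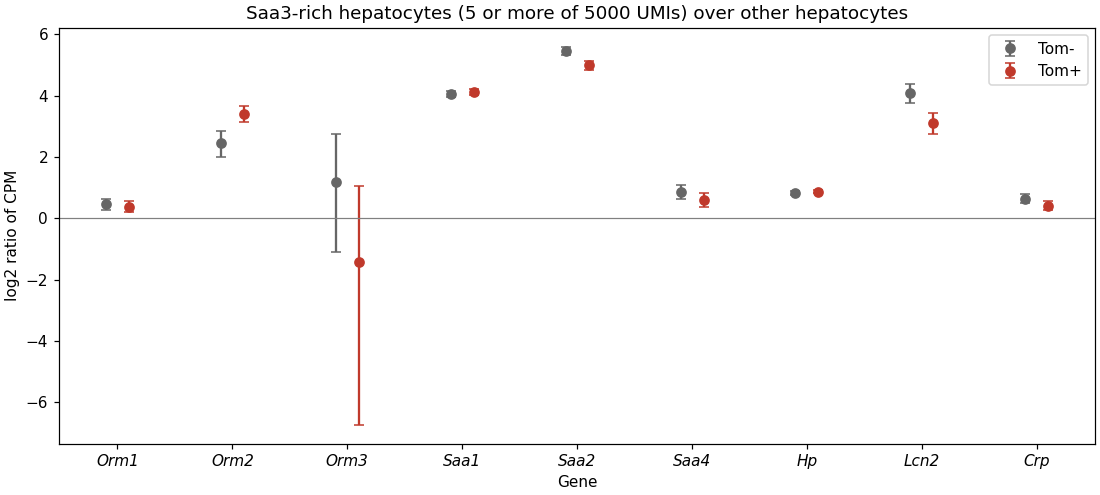
log2 ratio of CPM in Saa3-rich hepatocytes (5 or more Saa3 UMIs of 5000; 31 Tom- and 40 Tom+ cells) over the other hepatocytes (vertical axis) for the other 9 genes; points are the Tom- (grey) and Tom+ (red) library and bars 95% exact conditional intervals for counting error. Saa1, Saa2, Lcn2 and Orm2 lie between 2.44 and 5.46, Orm1, Saa4, Hp and Crp between 0.37 and 0.87, and Orm3 spans 0 with 3 and 1 UMIs.

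Outside the hepatocytes, 1 of the 10 genes was at least 2-fold over hepatocytes in both libraries in some left-out cluster (with 20 UMIs or more there), against 26.9% of the 13048 genes compared, so the count is not above the background. Saa3 was at 688 CPM (633 to 747) in 37 Tom- cells and 578 CPM (501 to 665) in 16 Tom+ cells of a cluster led by Lrp2, Upk1b, Bnc1, Il18r1 and Adgrd1, which was 38.4-fold and 25.1-fold over hepatocytes. Mesothelial genes such as Msln, Muc16 and Upk3b were among its leading 10, and it stays unnamed. In the cluster led by Retnlg, Mmp8 and S100a9, where all 6 neutrophil markers were high, Lcn2 was at 48.7 CPM in 32 Tom- cells and 66.9 CPM in 12 Tom+ cells, 1.40-fold and 1.62-fold over hepatocytes. Alb in these clusters was at hepatocyte level, so their values are sums of both kinds of RNA. In 16 Tom+ cells of hepatocyte cluster 12, led by Dmbt1 and with the cholangiocyte gene Krt19 among its leading genes, Lcn2 was at 144 CPM, against 42.6 CPM in its 56 Tom- cells.

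Barcodes removed by the filters were compared in the same way. In those over 100000 UMIs (360 Tom- and 1239 Tom+ barcodes), the log2 ratio of Tom+ over Tom- was 0.67 for Orm3, 0.65 for Orm2, 0.67 for Saa3 and -0.31 for Saa1, and Saa2 had 0.19 (0.14 to 0.25), the other direction than in hepatocytes. In those under 2000 genes (2663 and 1682 barcodes) it was 0.29 for Orm2, -0.06 (-0.41 to 0.28) for Saa3, -0.52 for Saa1 and -0.40 for Orm3 with an interval of -1.18 to 0.34, from 56 and 22 UMIs, and Hp had -0.20 (-0.23 to -0.18), also opposite to hepatocytes. The intervals take UMIs as independent. In thinned hepatocytes the top 1% of cells held 32.2% (Tom-) and 31.8% (Tom+) of Saa2 UMIs, so few barcodes may set its level here, which was not tested.

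The rest of the acute phase pathway was described from fixed gene lists. The list of other positive acute phase genes also holds genes whose products are not plasma proteins, such as Tat and Plin4. Tat is in the list of glucocorticoid responsive genes too. Of 29 other positive acute phase genes compared, 0 passed 2-fold between the libraries, against 0.306% of all genes. This background holds for every list compared between the libraries, and a count of 0 is near it. The median log2 ratio of Tom+ over Tom- of the 29 genes was -0.17 with 5 of 29 above 0, beside 0.04 over all genes. The highest were Steap4 (0.24), C3 (0.09) and Mbl1 (0.07), and the lowest Plin4 (-0.52), Il1rn (-0.50) and Tat (-0.44). Of 15 negative acute phase genes, which fall in inflammation, 0 passed 2-fold, with 9 above 0, a median of 0.04, Apoa1 highest (0.55), then Serpina6 (0.36) and Rbp4 (0.27), and Igfals (-0.39), Mug1 (-0.17) and Alb (-0.13) lowest. All 11 inducing cytokines were under 10 CPM in both libraries, so they were not compared. Il6 had 9 UMIs in Tom- and 12 in Tom+, Lif 21 and 85, Clcf1 913 and 1681 and Il1b 160 and 104.

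The receptors, 8 compared, and the transcription factors and inhibitors, 18 compared, also had 0 genes past 2-fold between the libraries. Among the receptors Il1r1 (0.41), Il6st (0.23) and Il22ra1 (0.15) were highest and Il1rap (-0.35), Lifr (-0.14) and Tnfrsf1a (0.06) lowest. Among the transcription factors and inhibitors Nfkbia (0.20), Nfkbiz (0.13) and Cebpd (0.12) were highest and Nr3c1 (-0.20), Rela (-0.16) and Hnf4a (-0.09) lowest. Of 10 glucocorticoid responsive genes 0 passed 2-fold, with a median of -0.24 and 1 above 0 (Klf9, 0.09), and Pck1 (-0.53), Tat (-0.44) and Per1 (-0.32) lowest. Of 11 circadian output genes 1 passed it, Dbp at 8.89 CPM in Tom- and 22.6 CPM in Tom+, a log2 ratio of 1.35, against 0.281% of all genes higher. It reached 10 CPM only in Tom+, where it was higher. Dbp is a leading gene of clusters 7 and 9, and without the clusters of at least 90% Tom+ cells its log2 ratio was 0.37 and the call was lost.

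By position, 23 of the 29 other positive acute phase genes compared had a ratio of portal over central above 0 in Tom- and 20 of 29 in Tom+, and most did not pass 2-fold. These counts and the calls below depend on the scaling. Median-of-ratios scaling adds 0.19 in Tom- and 0.23 in Tom+ to every log2 ratio, and more pathway genes then passed at the portal end. In Tom-, 3 of 29 passed 2-fold higher at the portal end (Il1rn at log2 2.12, Serpina3k at 1.25 and Tat at 1.03), against 2.61% of all genes, and 0 lower, against 3.99%, with a median of 0.35 beside -0.17 over all genes. In Tom+, 5 of 29 did (Il1rn at 2.31, Serpina3k at 1.26, Hpx at 1.10, Tat at 1.05 and C9 at 1.04), against 2.77% of all genes, and 0 lower, against 4.55%, with a median of 0.30 beside -0.22. Of the end ranges, Il1rn reached 10 CPM only at the portal end, where it was higher, in both libraries, so its calls are a description. Steap4 (-0.99 and -0.98) and Mbl1 (-0.45 and -0.49) had negative ratios in both libraries without passing 2-fold, and Hamp had 0.04 in Tom- and -0.72 in Tom+.

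The negative acute phase genes Serpina6 (-1.59 in Tom- and -1.48 in Tom+) and Apoa1 (-1.08 and -1.02) passed 2-fold higher at the central end, 2 of 15 in each library, against 3.99% of all genes in Tom- and 4.55% in Tom+, the background for the receptors too. Of 8 receptors, Il1r1, the signalling receptor of interleukin-1, passed it with -1.74 and -1.94 and Il22ra1 with -1.36 and -1.30. Il1r1 was at 89.0 CPM in range 1 and 298 CPM in range 5 of Tom-, and at 77.3 and 297 CPM in those of Tom+, the same direction as Saa3 and opposite to Saa1. Il1rap had the highest ratio of the 8 receptors in both libraries, above 0 and so the other direction than Il1r1. A link of these receptors to the members was not tested. Of 18 transcription factors and inhibitors 0 passed 2-fold, against 6.6% of all genes in Tom- and 7.31% in Tom+ in either direction. Nfkbiz (-0.80 and -0.81) and Cebpd (-0.73 and -0.85) were among the lowest and Cebpa (0.31 and 0.39) highest. Higher at the portal end, the background was 2.61% of all genes in Tom- and 2.77% in Tom+. Of the glucocorticoid responsive genes, 2 of 10 in Tom- and 2 of 9 in Tom+ passed 2-fold there. They were Pck1 (1.68 and 1.89), itself a zone 1 marker in the score, and Tat, already counted in the acute phase list above. Of the circadian output genes, 1 of 11 passed it in Tom-, Per2 (1.55), and 0 of 10 in Tom+, where Per2 had 0.93.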

How the data were processed

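Per the labels and the submitters' processing notes, the authors prepared 10x Genomics Flex libraries with probe pairs, counted UMIs with Cell Ranger 7.2.0 against mm10 and deposited raw counts per gene and cell. How probes shared between relatives were handled is not given in the sources used here. Here, cells with at most 5% mitochondrial counts, 2000 to 10000 genes and at most 100000 UMIs were kept (20159 of 23220 Tom- and 13378 of 16339 Tom+ barcodes, with 681279005 and 715333889 UMIs in the libraries) and clustered with scanpy 1.11.5 (2000 variable genes, 30 components, 20 neighbours, resolution 0.8). A cluster was left out where its cells had a median gene number below 0.75 of the overall median, or where its CPM of Pecam1, Ptprc or Dcn exceeded 2.5 times the value of the middle cluster. These limits and the 90% limit for nearly all-Tom+ clusters come from an earlier analysis that had the clusters in view. The 10 members were left out of the clustering genes, a change to the planned clustering made after the files were seen, and the planned clustering is given as an alternative. Scrublet called 0 doublets in each library, so it did not work and doublets were kept.

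Counts were summed per gene and converted to CPM, with 95% intervals from scipy 1.17.1: exact Poisson for levels, exact conditional for ratios and Clopper-Pearson for shares. A pseudocount of 0.5 UMIs entered ratios taken over all genes. The intervals hold counting error alone, without the spread between cells or mice, and no test was made because a group is 1 library. A gene counted as higher or lower past 2-fold at 10 CPM or more in either sum and 20 UMIs over both. The rule was run on simulated Poisson sums with known fold changes. These hold no spread between cells or libraries, so the run checks the arithmetic and not the calls in these data. The members, gene lists and alternatives were chosen with earlier results of these data known. Named genes are the members, the 3 highest and 3 lowest of each pathway list, the 3 genes most like each member and the 5 leading genes of a cluster. Chosen after their values were seen were C9, Lif, Clcf1, Il1b and Il6, the genes of Saa3-rich cells, Krt19, Msln, Muc16 and Upk3b, and Clec4f and Cdkn2a as checks of labels. Positions are from GENCODE (mm10) and upstream sequences from RefSeq (GRCm38.p6).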

Additional observations from a re-analysis of the deposited data

Results flagged for a closer look

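Hp had opposite directions along the lobule in the 2 libraries: the log2 ratio of the portal over the central range was 0.0326 in Tom- and -0.0305 in Tom+. The difference between the libraries was not tested, since each group has 1 library, and both ratios lie near 0: Tom- gave -0.0158 with 9 position ranges. Median-of-ratios scaling adds 0.23 to the ratio of every gene in Tom+, and totals without the 50 top genes add 0.11, so Hp changed sign there (0.20 and 0.0748) by construction.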

How the results depend on the processing

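No paired analysis was possible because only 1 library stands for Tom- and 1 for Tom+, and no replicate could be left out. Of 218 counts recomputed under alternatives, 190 kept within 1.5 times the main count and 28 did not. Of 630 log2 ratios of single members, 293 stayed within the counting interval of the reported value and 324 moved out of it, as did 38 of 40 shares of cells, which depend on depth. Of the 630, 13 changed direction where the interval of the reported value excluded 0, and 12 more had the other sign where that interval held 0. The counts of members past 2-fold between libraries kept their value of 0 under all alternatives run. For portal over central in Tom+, 5 members higher became 3 with 3 position ranges, with a score from 4 markers and with clusters named zone 1-like and zone 3-like. Saa3, the 1 member lower at the portal end, gave 0 at a minimum of 50 CPM in both libraries and 0 in Tom- with the score from 4 markers. The 2 pairs of a member and a range, both Orm3, became 0 without clusters of at least 90% Tom+ cells, with looser cell filters (no upper UMI limit and at least 1000 genes) and at 50 CPM, 1 with a marker limit of 4 times the median cluster, 3 ranges, ranges set within each library or the score from 4 markers, and 4 with no minimum CPM. The 5 members with a UMI in over 50% of hepatocytes became 8 in both libraries with no thinning, and the 1 member past 2-fold in a left-out cluster became 2 at resolution 1.2. In the pathway lists, the 1 gene higher in Tom+, Dbp, became 0 without clusters of at least 90% Tom+ cells or at 50 CPM and 2 with no minimum, and the 0 lower became 1 with no minimum. Pathway genes higher at the portal end went from 5 to 13 in Tom- and from 6 to 14 in Tom+ with median-of-ratios scaling, which shifts all ratios, from 5 to 3 in Tom- at 50 CPM, and in Tom+ to 3 with 3 ranges and to 10 with 9 ranges. Those lower went from 4 to 7 in Tom- and from 4 to 8 in Tom+ with no minimum.

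Of the 13, the members were Orm3 between libraries (-0.0626 without clusters of at least 90% Tom+ cells), Hp in Tom- (-0.0158 with 9 ranges, -0.0126 with the score from 4 markers) and in Tom+ (0.20 with median-of-ratios scaling, 0.0748 with totals without the 50 top genes, both of which add a constant to every gene), Saa1 averaged over ranges (0.0469 without clusters of at least 90% Tom+ cells) and Saa3 averaged over ranges. The last gave 0.0782 with looser cell filters, 0.0238 with 3 ranges, 0.33 with ranges set within each library, 0.0381 with the score from 4 markers, 0.00969 with members kept among the clustering genes, 0.106 without the cluster led by Rsad2 and 0.112 without the clusters led by Rsad2, Col3a1, Marco and Dmbt1, so the Saa3 difference within ranges has no settled direction. The 12 were Orm1 averaged over ranges (down to -0.385), Saa2 averaged over ranges (down to -0.279), both with ranges set within each library, and Orm2 portal over central in Tom+ (down to -0.0593 with looser cell filters). Except where removing cells or genes is the alternative itself, the cause was not tested. Depth limits Orm3 and Saa3 most, at 3135 and 7133 UMIs in Tom- hepatocytes.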
